A study of Mus musculus with 12 samples.

Results

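The genes described here encode collagens, laminins, integrins, the secreted ADAMTS proteases and their ADAMTS-like relatives, and the fibrillins. They were taken by symbol from a table of 12145 mouse genes, whatever their level or response, and 46 genes met the naming pattern: 16 collagens, 7 laminins, 2 fibrillins, 8 ADAMTS proteases, 2 ADAMTS-like genes, 6 integrin alpha subunits, 4 integrin beta subunits and 1 integrin beta-like gene. RNA was sequenced from cortical cultures of C57BL6 mouse embryos of age E16.5-E17.5. All cultures received lentivirus on day 6 in vitro, given at a multiplicity of infection of 1 on 2 occasions for a total of 2. The virus was either empty or carried miR-29c. On day 14 the cultures went through oxygen-glucose deprivation (OGD), a culture model of ischaemia in which oxygen and glucose are withdrawn, or through a sham change of the same buffer in normal oxygen. The 4 groups were therefore sham-empty (sham with empty virus), sham-miR-29 (sham with miR-29 virus), OGD-empty (3 h of OGD and 4 h of recovery with empty virus) and OGD-miR-29 (the same OGD and recovery with miR-29 virus). Replicates were cultures dissected on different days. The level of miR-29 itself was not analysed here, so the delivery of the miRNA is taken from the labels. No group went without virus, and the infected share of the cells was not given in the sources used here.

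Collagens, laminins and fibrillins build the extracellular matrix, and in brain most of this matrix lies in the basement membranes of vessels and meninges, with smaller amounts around neurons and glia. Integrins are the receptors, made of an alpha and a beta subunit, that anchor cells to this matrix. ADAMTS proteases trim procollagens and cut proteoglycans, while ADAMTS-like proteins lack the protease domain. The miR-29 family is known outside the brain as a repressor of matrix genes, which it binds through short sites in their 3′ untranslated regions (3′UTRs).

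The 3 mouse miR-29 miRNAs share one seed, bases 2 to 8, which is in capitals in their mature sequences (RefSeq, GRCm38.p6). These are shown because every site below is read against this seed, and the miR-29c form is the one carried by the virus.
mmu-miR-29c-3p: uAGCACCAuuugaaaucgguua
mmu-miR-29a-3p: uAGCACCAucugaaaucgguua
mmu-miR-29b-3p: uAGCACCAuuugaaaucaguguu
The sequence that pairs with the seed, TGGTGCT, was searched on the sense strand of the annotated 3′UTR of each gene (GENCODE M21 transcripts, GRCm38). A match followed by an A is called an 8-base site here, and each 8-base site contains a 7-base match. At least 1 match was present in 18 of the 46 genes (39.1%) and in 16.7% of the 10108 genes of the table with an annotated 3′UTR. An 8-base site was present in 8 of the 46 (17.4%) and in 3.5% of those 10108 genes. Median 3′UTR lengths were 1278.5 nt for the 46 genes and 1299 nt for all. A match is a run of letters and was not tested as a bound site here. The 8-base sites are printed below, 30 bases each in 3′UTR sequence, with the match and its A in capitals, because they are the longest of the matches searched for.
Adamts17: ctagtgtctctcagtcttaTGGTGCTAttc
Adamts6: tttcaaaggacagttaactTGGTGCTAatg
Col25a1: tgttttccatttgtgttgtTGGTGCTAata
Col3a1: caacttcaaaatgtctcaaTGGTGCTAtaa
Col4a1: ctctgccaccgtcacaacaTGGTGCTActc
Col5a2: ataacttttcttttaatgaTGGTGCTAaaa
Fbn1: taggtttctgttgtctgttTGGTGCTAgta
Lamc1: aaactattatctgacacacTGGTGCTAtta
On GRCm38 these windows lie at chr7:67152284-67152313 on the plus strand for Adamts17, chr13:104495677-104495706 (plus) for Adamts6 and chr3:130597862-130597891 (plus) for Col25a1. Those of Col3a1, Col4a1 and Col5a2 lie at chr1:45348963-45348992 (plus), chr8:11199758-11199787 (minus) and chr1:45374962-45374991 (minus). Those of Fbn1 and Lamc1 lie at chr2:125301170-125301199 (minus) and chr1:153220065-153220094 (minus). Each window lies within a single exon. Col26a1, Col4a3 and Adamts2 had 4 matches each without an 8-base site. Among the members with no match were Col1a2, Adamts3, Col19a1, Col23a1, Adamtsl1, Itga8, Itgb8 and Lama2.

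Counts of 11 libraries were used, 2 of sham-empty and 3 of each other group, with column totals of 1337564 to 6616920. The column of the third sham-empty library summed to 22859 and was not read counts: for 92.5% of the genes matched to the annotation, and 42 of the 46 members, it equalled the number of genes annotated on the same strand in the gene and the 10 kb after it. Mitochondrial genes held 57.6% to 84.1% of a library's counts, which left 393 to 2749 counts for the 46 genes together, so depth limits these results. Genes longer than 100 kb held 17.9% to 19% of the other counts in sham-empty, 16.9% to 22.5% in sham-miR-29, 25% to 42.2% in OGD-empty and 14.1% to 16.2% in OGD-miR-29, and OGD-empty replicate 2, at 42.2%, stood apart. The matrix genes were long, with a median span of 114 kb against 23 kb for all genes tested, and 26 of the 46 exceeded 100 kb. The sources used here do not state the strand setting or counting region, so reads of an overlapping gene or of one just downstream could be counted for a member: 23 members had such a neighbour in the table with a summed count at least 0.5 times their own, and 23 had no neighbour in the table. Levels below are CPM after TMM scaling, which do not correct for gene length and are compared only within a gene.

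The contrast that moved the most matrix genes was that of the 2 viruses after OGD, which asks what miR-29 changes in injured cultures. After OGD, 14 of the 46 genes were lower with miR-29 virus than with empty virus and none was higher (edgeR's quasi-likelihood test, Benjamini-Hochberg adjusted p under 0.05 over 12119 genes tested). They were Lama2, Itga8, Col25a1, Adamts3, Col19a1, Itgb8, Col23a1, Adamtsl1, Adamts17, Fbn2, Fbn1, Itgbl1, Lamc1 and Adamts2, with log2 differences from -1.69 to -0.77. This was a broad response: 37.1% of all genes tested were called, 19.9% lower and 17.2% higher, against 30.4% of the 46 called lower. The median log2 difference was -0.30 over the 46 genes and 0.02 over all genes, and -0.13 over the 46 without OGD-miR-29 replicate 1. In 16 members (34.8%) every OGD-miR-29 library was below every OGD-empty library, against 25.2% of all genes. The call count was 9 without OGD-miR-29 replicate 2 and 12 without OGD-empty replicate 2. In bulk RNA, fewer cells of a type and less RNA per cell cannot be told apart.

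**Figure D1:**
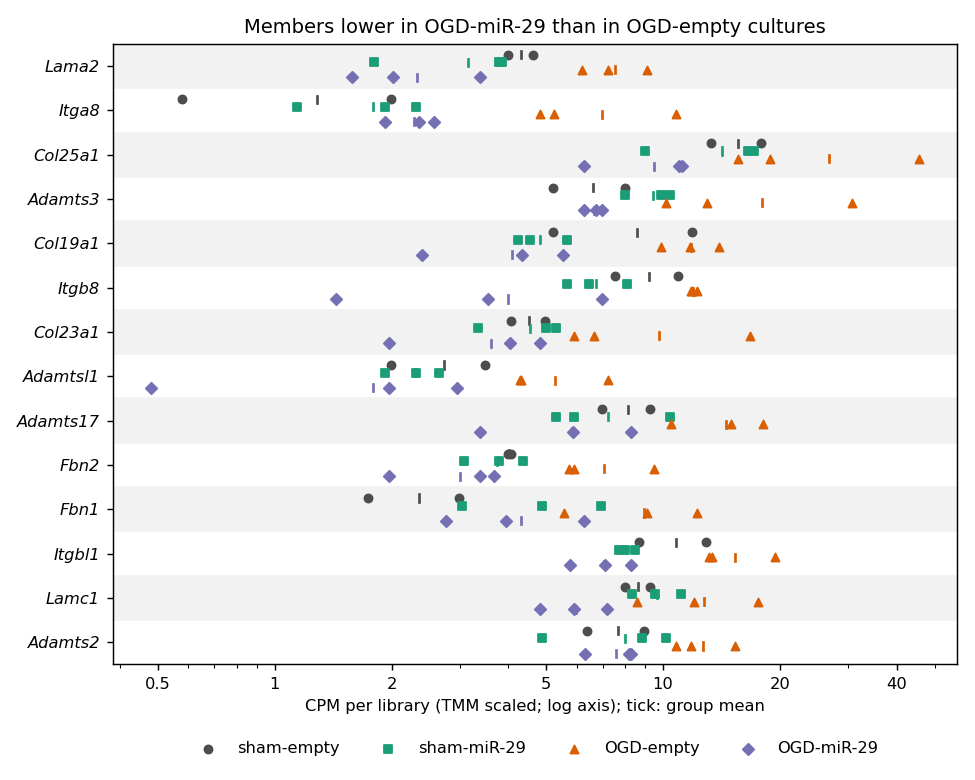
CPM (log axis) of the 14 genes called lower with miR-29 virus than with empty virus after OGD, 1 symbol per library and a tick at each group mean (n = 2 for sham-empty, n = 3 for each other group). The OGD-empty triangles lie to the right of the OGD-miR-29 diamonds in 13 of the 14 genes, with Fbn1 the exception.

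Of the 16 collagens, 3 were lower with miR-29 virus than with empty virus after OGD and 13 were not called. Col25a1 encodes a transmembrane collagen of neurons (chr3:130131501-130599877, GRCm38). Its CPM was 17.9 and 13.3 in sham-empty, 9.0 to 17.1 in the 3 of sham-miR-29, 15.6, 45.6 and 18.8 in OGD-empty and, in OGD-miR-29, 11.2, 11 and 6.25. The OGD-miR-29 libraries all lay below the OGD-empty ones, one of which, replicate 2, was far above the rest. The log2 difference between viruses after OGD was -1.40 ± 0.41 (SE, adjusted p = 0.0174). It was -0.79 without OGD-empty replicate 2, and the call was lost without OGD-miR-29 replicate 3 (-1.22, adjusted p = 0.0664). Col23a1, another transmembrane collagen (chr11:51289920-51583918), stood at 6.64, 16.7 and 5.9 CPM in OGD-empty and at 4.04, 1.97 and 4.81 CPM in OGD-miR-29. The groups did not overlap, and the 5 sham libraries, at 3.34 to 5.31 CPM, lay below all OGD-empty libraries. Its log2 difference was -1.35 ± 0.39 (adjusted p = 0.0127), and the call was lost without OGD-empty replicate 2 (-0.84, adjusted p = 0.0605) or OGD-miR-29 replicate 2 (-1.11, adjusted p = 0.0578). Phykpl, which lies beside it on the same strand, held 4.344 times its count. Col19a1 encodes a collagen that associates with fibrils (chr1:24261890-24587472). It stood at 9.88, 11.7 and 13.9 CPM in OGD-empty and at 5.51, 4.33 and 2.4 CPM in OGD-miR-29, with 4.23 to 11.9 CPM in the 5 sham libraries. The viruses separated after OGD with a log2 difference of -1.37 ± 0.31 (adjusted p = 0.00282), and the call held on leaving out any 1 of the 11 libraries.

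None of the measured collagens of fibrils and of basement membrane networks was called. Col1a2 and Col3a1, chains of the fibrils of skin and vessel walls, had log2 differences of -0.39 ± 0.41 and 0.50 ± 0.26 (adjusted p = 0.475 and 0.128). Col5a2, which limits fibril thickness, had one of -0.44 ± 0.36 (adjusted p = 0.357). Col4a1 and Col4a2, which twist together into the main network of basement membranes, had -0.12 ± 0.25 and -0.15 ± 0.29 (adjusted p = 0.738 and 0.712). Col4a1 (up to chr8:11312826, minus strand) and Col4a2 (from chr8:11312805, plus strand) lie head to head and share only a short stretch at their 5′ ends. Col4a2 held 0.593 times the count of Col4a1, and reads over that stretch could be counted for either. The other 8 collagens not called lay between -0.60 (Col17a1, of the anchors of epithelia) and 0.79 (Col8a2, a network collagen), and included Col4a3, Col6a1, Col18a1, Col20a1, Col22a1 and Col26a1. Only 3 of 11 listed fibrillar collagens and 4 of 9 network collagens were among the genes analysed. Col1a1 was not among them.

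Of the 7 laminins, the trimers that form the sheet of a basement membrane, 2 were lower with miR-29 virus. Lama2 encodes the alpha 2 chain found in muscle and in brain vessels (chr10:26980036-27619758). Its CPM was 3.98 and 4.63 in sham-empty, 3.79, 3.84 and 1.8 in sham-miR-29, 6.18, 7.23 and 9.11 in OGD-empty and, in OGD-miR-29, 2.02, 1.58 and 3.37. The OGD-empty libraries were above all others and the OGD-miR-29 libraries below both sham-empty ones. Its log2 difference after OGD was -1.69 ± 0.38 (adjusted p = 0.00236), and the call held on leaving out any 1 library. Lamc1 encodes the gamma 1 chain shared by most laminins and is a reported miR-29 target (chr1:153218922-153332786). It stood at 12, 17.6 and 8.58 CPM in OGD-empty against 7.16, 5.91 and 4.81 CPM in OGD-miR-29. The 5 sham libraries, at 7.96 to 11.1 CPM, also lay above every OGD-miR-29 library. The log2 difference after OGD was -1.04 ± 0.28 (adjusted p = 0.00791), and this call too held on leaving out any 1 library. The other 5 laminins were not called: Lamb3, a chain of epithelial laminin, had the highest value (0.67 ± 0.28, adjusted p = 0.0616), and Lamb1, Lamb2 and Lama5 lay between -0.17 and 0.04.

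Both fibrillins, the proteins of elastic microfibrils, were lower. Fbn1, a reported miR-29 target (chr2:125300594-125507993), stood at 5.56, 12.2 and 9.11 CPM in OGD-empty and at 2.76, 3.94 and 6.25 CPM in OGD-miR-29. It was the one called gene whose OGD groups overlapped, and its 2 sham-empty libraries stood at 2.98 and 1.74 CPM, below all 3 of OGD-empty. Its log2 difference was -1.07 ± 0.38 (adjusted p = 0.0336), and the call was lost without OGD-empty replicate 2 (-0.79, adjusted p = 0.0943) or 3 (-1.02, adjusted p = 0.069), and without OGD-miR-29 replicate 1 (-0.71, adjusted p = 0.211) or 2 (-1.06, adjusted p = 0.0796). Fbn2, the fibrillin of early development, stood at 5.71, 9.48 and 5.9 CPM in OGD-empty and at 3.67, 1.97 and 3.37 CPM in OGD-miR-29, with no overlap. Its log2 difference was -1.12 ± 0.34 (adjusted p = 0.0154), or -0.93 and not called (adjusted p = 0.0632) without OGD-miR-29 replicate 2.

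Of the 8 ADAMTS proteases, 3 were lower with miR-29 virus, 2 of which remove the amino-terminal propeptide of procollagens. Adamts3, one of that pair (chr5:89677087-89883334), stood at 7.96 and 5.21 CPM in sham-empty, 9.86, 10.4 and 7.97 in sham-miR-29, 13.0, 30.7 and 10.2 in OGD-empty and, in OGD-miR-29, 6.98, 6.7 and 6.25. OGD-miR-29 replicates were tightly grouped below all OGD-empty and all sham-miR-29 libraries. The log2 difference after OGD was -1.38 ± 0.34 (adjusted p = 0.00447), and -0.87 without OGD-empty replicate 2, still called. Adamts2, its partner in function (chr11:50602084-50807573), stood at 15.3, 10.8 and 11.8 CPM in OGD-empty and at 8.27, 6.3 and 8.17 CPM in OGD-miR-29. Its difference of -0.77 ± 0.28 (adjusted p = 0.0362) was the smallest of the 14 and was not called without OGD-empty replicate 1 (-0.56, adjusted p = 0.208), nor without OGD-miR-29 replicate 1 (-0.83, adjusted p = 0.0706), 2 (-0.66, adjusted p = 0.117) or 3 (-0.80, adjusted p = 0.0636). Its opposite-strand neighbour Zfp354c held 0.978 times its count. Adamts17, a protease linked to fibrillin fibres (chr7:66839735-67153171), stood at 10.5, 18.1 and 15 CPM in OGD-empty and at 5.88, 8.27 and 3.37 CPM in OGD-miR-29. Its groups did not overlap and the log2 difference was -1.23 ± 0.32 (adjusted p = 0.00607). Adamts6, a protease with an 8-base site, differed by 0.16 ± 0.33 (adjusted p = 0.734). Adamts1, Adamts8, Adamts13 and Adamts15 lay between 0.06 and 0.42 and were not called.

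Of the 2 ADAMTS-like genes, Adamtsl1 (chr4:85514172-86428385), which encodes a secreted matrix protein, was lower. It stood at 4.32, 7.23 and 4.29 CPM in OGD-empty and at 2.94, 1.97 and 0.481 CPM in OGD-miR-29, with no overlap. Its log2 difference was -1.27 ± 0.42 (adjusted p = 0.0241), and the call was lost without OGD-empty replicate 2 (-1.03, adjusted p = 0.0641) and without OGD-miR-29 replicate 2 (-1.23, adjusted p = 0.0596) or 3 (-0.97, adjusted p = 0.0797). The neighbour Sh3gl2, on the same strand, held 6.728 times its count. Adamtsl2, which binds microfibrils, differed by -0.14 ± 0.33 (adjusted p = 0.763).

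Among the receptors, 1 of 6 alpha subunits, 1 of 4 beta subunits and the beta-like gene were lower with miR-29 virus. Itgb8 pairs with the alpha v subunit and releases active TGF-beta from its latent form (chr12:119158022-119238802). Its CPM was 10.9 and 7.52 in sham-empty, 6.45, 8.07 and 5.66 in sham-miR-29, 11.9, 12.2 and 11.8 in OGD-empty and, in OGD-miR-29, 6.98, 3.54 and 1.44. OGD-empty replicates were nearly equal, while the OGD-miR-29 ones were low and spread widely. The log2 difference was -1.36 ± 0.33 (adjusted p = 0.00401), and -2.16 to -1.08 when any 1 library was left out, called each time. Itga8, an alpha subunit that pairs with beta 1 (chr2:12106632-12301922), stood at 1.99 and 0.579 CPM in sham-empty, 1.14, 1.92 and 2.31 in sham-miR-29, 5.25, 10.8 and 4.82 in OGD-empty and, in OGD-miR-29, 2.57, 2.36 and 1.92. OGD-empty libraries were above all 8 others. Its log2 difference after OGD was -1.49 ± 0.40 (adjusted p = 0.00731), and every fit without 1 library called it. Itgbl1, a secreted relative of beta subunits (chr14:123659971-123975618), stood at 13.1, 19.4 and 13.4 CPM in OGD-empty and at 8.27, 7.09 and 5.77 CPM in OGD-miR-29. The viruses did not overlap after OGD, with a log2 difference of -1.05 ± 0.26 (adjusted p = 0.00428), but the opposite-strand neighbour Fgf14 held 7.261 times its count. Itgb1, the beta subunit shared by most matrix receptors, differed by -0.31 ± 0.22 (adjusted p = 0.268), and Itga11, a collagen receptor subunit, by -0.08 ± 0.20 (adjusted p = 0.782). Itgav, the partner of Itgb8, differed by -0.63 ± 0.26 (adjusted p = 0.0639), and with the replicate number as a block by the same amount (adjusted p = 0.0471). Of the other subunits, Itga9 (-0.79), Itga6 (-0.59) and Itgb5 (-0.58) lay below 0 and Itga2 (0.17) and Itgb7 (0.33) above, none of them called.

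The genes called lower with miR-29 virus after OGD were mostly long ones. Their spans ran from 80.8 kb (Itgb8) to 914 kb (Adamtsl1) with a median of 251 kb, against a median of 64.1 kb for the other 32 members, and 13 of the 14 exceeded 100 kb. Of the 14 members longer than 200 kb, 11 (78.6%) were lower after OGD with miR-29 virus, close to the share among all 840 genes of that length (79.5%). Among members of 100 to 200 kb, 2 of 12 (16.7%) were lower against 51.3% of all genes of that length, and below 50 kb none of 15 was lower against 7.76%. The 2 long members above 0 in that contrast were Adamts6 (0.16 ± 0.33) and Col22a1 (0.44 ± 0.27), a collagen of tissue junctions, neither of them called.

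**Figure D2:**
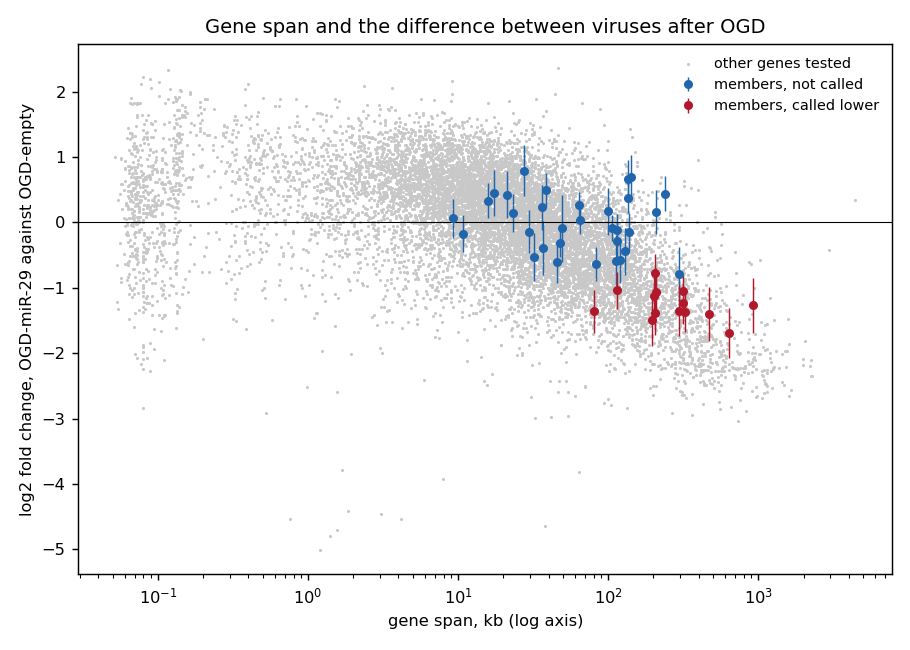
Log2 fold change of OGD-miR-29 against OGD-empty (vertical axis) by gene span in kb (log axis) for all genes tested with an annotated span (grey) and for the 46 matrix genes with their standard errors (blue, not called; red, called lower). Differences fall with span among all genes, and 13 of the 14 red points lie beyond 100 kb.

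When the trend of counts with span was taken out of each library and the replicate number was added as a block, most of the 14 genes lost their call. Their log2 differences then lay between -0.89 and 0.41, and 1 of the 14 stayed called: Itgb8, the shortest of them, at -0.89 ± 0.30 (adjusted p = 0.0256). Lama2 was then at -0.23 ± 0.41 (adjusted p = 0.727), Lamc1 at -0.36 ± 0.26 (adjusted p = 0.321), Adamts3 at -0.31 ± 0.25 (adjusted p = 0.381) and Itga8 at -0.52 ± 0.38 (adjusted p = 0.336). In this fit 8 members were called against a background of 24.1% of genes (12% higher and 12.1% lower), and 7 of the 8 were higher with miR-29 virus. Among these, and named here after their values were seen, were Col22a1 (1.43 ± 0.25), Col26a1 (1.4 ± 0.35), Lamb3 (1.39 ± 0.28), Adamts6 (1.11 ± 0.26), Col4a3 (1.11 ± 0.23) and Itga11 (0.53 ± 0.19), with adjusted p from 0.000105 to 0.0392. These differences are relative to genes of the same length: without the trend removed none of these genes was called. Lamb3, Col4a3, Itga11 and Col22a1 each had a neighbour in the table with more than their own count. Thus 13 of the 14 genes were called only in fits that kept the trend with span, and Itgb8 was called either way. Its log2 difference shrank from -1.36 to -0.89, and without the block to -0.88 (edgeR's quasi-likelihood test, adjusted p = 0.035). Its lowest library, OGD-miR-29 replicate 3, held 3 counts of Itgb8. Whether this call holds without single libraries once the trend is taken out was not tested. The origin of the trend was not tested either.

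**Figure D3:**
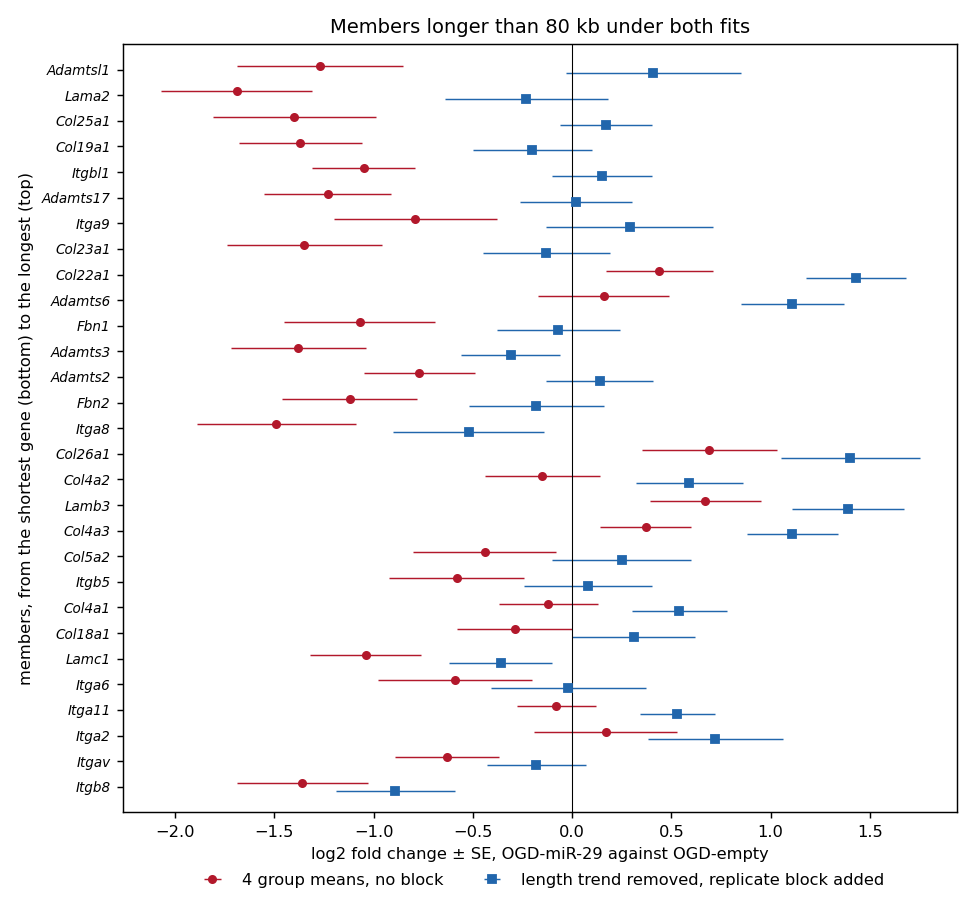
Log2 fold change ± SE of OGD-miR-29 against OGD-empty for the 29 genes longer than 80 kb, ordered by span, in the fit of 4 group means (red circles) and with the length trend removed and a replicate block (blue squares). The blue squares lie to the right of the red circles in all of them, and Itgb8 is left of 0 by more than its standard error in both.

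OGD under empty virus, which asks what deprivation itself does, raised 1 matrix gene and lowered none. That gene was Itga8, with the CPM given above: the 3 OGD-empty libraries, at 4.82 to 10.8 CPM, did not overlap the sham-empty pair. Its log2 difference was 2.55 ± 0.69 (adjusted p = 0.0376). The sham-empty pair held 3 counts in all against 67 in OGD-empty, a ratio of 5.78 with an exact 95% interval of 1.9 to 28.7 that covers counting error only. In this comparison 5.09% of all genes were called, 1.48% higher and 3.61% lower, so 1 of 46 (2.17%) is near the background. The Itga8 call was lost without sham-empty replicate 1 (3.46, adjusted p = 0.121) or 2 (1.76, adjusted p = 0.438), without OGD-empty replicate 2 (2.23, adjusted p = 0.0561), and with the length trend removed (1.88 ± 0.71 with the block, adjusted p = 0.125). With the replicate number as a block 3 genes were called: Itga8 (2.70), Adamts3 (1.62, adjusted p = 0.0212) and Fbn1 (1.98, adjusted p = 0.026), against a background of 11.3%.

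Short of the threshold, the matrix genes leaned upward after OGD under empty virus. The median log2 difference was 0.33 over the 46 and 0.02 over all genes, and 18 members (39.1%) had OGD-empty libraries all above the sham-empty pair, against 22% of all genes. Among them were Fbn1 (1.90 ± 0.61, adjusted p = 0.0693) and Adamts3 (1.47 ± 0.46, adjusted p = 0.0667). Col8a2, a network collagen of corneal and vascular membranes, had the lowest value, at -1.18 ± 0.49 (adjusted p = 0.153). By length, the median was -0.07 for members under 50 kb, 0.30 for those of 50 to 100 kb, 0.19 for those of 100 to 200 kb and 0.75 for longer ones. All genes of those lengths had medians of -0.19, 0.30, 0.58 and 1.08. With the length trend taken out and the block added, the members' median was -0.06, and Col22a1 was the 1 member called, lower at -1.31 ± 0.34 (adjusted p = 0.0219), in a fit that called 4.2% of all genes.

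Under miR-29 virus, OGD moved no matrix gene past the threshold. edgeR called 0 of the 46 and 0.0165% of all genes, and DESeq2 and limma-voom also called 0 of the 46. At an unadjusted p under 0.05 there were 3 members, Lamb3, Lamc1 and Col3a1, among 1111 genes (9.17% of all tested). Lamb3 stood at 4.55, 4.23 and 7.97 CPM in sham-miR-29 and at 10.1, 12.6 and 8.65 CPM in OGD-miR-29, without overlap, and its log2 difference of 0.85 ± 0.28 was the highest of the 46 (adjusted p = 0.452). Lamc1 had the lowest, -0.64 ± 0.29 (adjusted p = 0.53). The median was -0.09 over the 46 genes and 0 over all. For the called genes of the preceding contrasts, the values under miR-29 virus were 0.35 ± 0.49 for Itga8, -0.47 ± 0.36 for Adamts3 and -0.32 ± 0.41 for Fbn1.

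In sham cultures the miR-29 virus moved no matrix gene past the threshold either. edgeR called 0 of the 46 and 0 of all 12119 genes, and DESeq2 and limma-voom called 0 of the 46. At an unadjusted p under 0.05 there was 1 member, Col8a2, among 405 genes (3.34%). Col8a2 stood at 5.97 and 6.37 CPM in sham-empty and at 3.41, 2.69 and 2.57 CPM in sham-miR-29. The groups did not overlap, and its log2 difference of -1.11 ± 0.49 was the lowest of the 46 (adjusted p = 1). Its opposite-strand neighbour Tekt2 held 0.923 times its count. Fbn1, a reported target, had the highest, 1.14 ± 0.65 (adjusted p = 1), and was not called. Its value rests on 6 counts in the sham-empty pair. The median over the 46 genes was 0.04 against 0 over all, and 5 members had groups that did not overlap in each direction (10.9% each, against 10.6% of all genes higher and 11.9% lower). With 2 sham-empty libraries and standard errors of up to 0.84 per gene, small differences could not be detected at this depth.

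The interaction asks whether the virus changed the response to OGD, and 1 matrix gene passed: Adamts3, at -1.94 ± 0.59 (adjusted p = 0.0462), against 8.38% of all genes. The log2 difference between OGD and sham was 1.47 ± 0.46 under empty virus (adjusted p = 0.0667) and -0.47 ± 0.36 under miR-29 virus (adjusted p = 0.677), neither of them called. The call was lost without either sham-empty library, without sham-miR-29 replicate 1 or 2 and without any 1 of the OGD-miR-29 libraries, with log2 values of -2.22 to -1.62 and adjusted p of 0.0696 to 0.279 in those fits. With the length trend taken out and the block added the value was -1.04 ± 0.46 (adjusted p = 0.166). Adding the replicate block alone called 4 genes, Adamts3 (-2.12), Fbn1 (-2.18), Lamc1 (-1.33) and, in the other direction, Col8a2 (2.08), with adjusted p of 0.0153 to 0.0495 and a background of 15.4%.

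The reported targets of miR-29 did not move together. Of 8 listed, 6 were in the table: Col1a2, Col3a1, Col4a1, Col4a2, Fbn1 and Lamc1. In sham cultures none was called lower with miR-29 virus, and log2 differences ran from -0.63 (Col1a2) to 1.14 (Fbn1). After OGD, Fbn1 and Lamc1 were lower and the other 4 were not called. Col3a1, whose 8-base site is printed above, stood at 9.57, 10.4 and 14.5 CPM in OGD-empty and at 13.0, 18.5 and 16.3 CPM in OGD-miR-29. The groups overlapped and the values with miR-29 virus tended to be the larger. Col4a1, with a site 33 bases into its 3′UTR, stood at 15.1, 16.7 and 17.7 CPM in OGD-empty and at 14.7, 17.7 and 12.5 CPM in OGD-miR-29, within the spread between replicates. With the length trend taken out and the block added none of the 6 was called after OGD, and their median was 0.23.

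Grouping the 46 genes by site gave the same mixed result. In sham cultures the median log2 difference with miR-29 virus was -0.18 over the 8 genes with an 8-base site, 0.06 over the 10 with a 7-base match only and 0.09 over the 28 with none, against 0, 0.03 and 0 for all genes of those classes. Of the 8, 6 were below 0 and none was called. After OGD the medians were -0.74, -0.23 and -0.23, against -0.32, -0.22 and 0.04 for all genes. Adamts17, Col25a1, Fbn1 and Lamc1 were the 4 of the 8 called lower, against 34.6% of all 355 genes with an 8-base site. Of the members with a 7-base match only, 3 of 10 were lower, against 27.7% of all such genes. Of those with none, 7 of 28 were lower, against 19.4%. The classes differed in length: the median span was 168 kb, 172 kb and 72.6 kb in the members, and 38.1 kb, 41.3 kb and 26.6 kb in all genes. With the length trend taken out and the block added, the members' medians were 0.21, 0.22 and 0.03, and those of all genes -0.10, -0.03 and 0.06. The ordering by site seen over all genes was thus not present among the matrix genes in that fit.

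**Figure D4:**
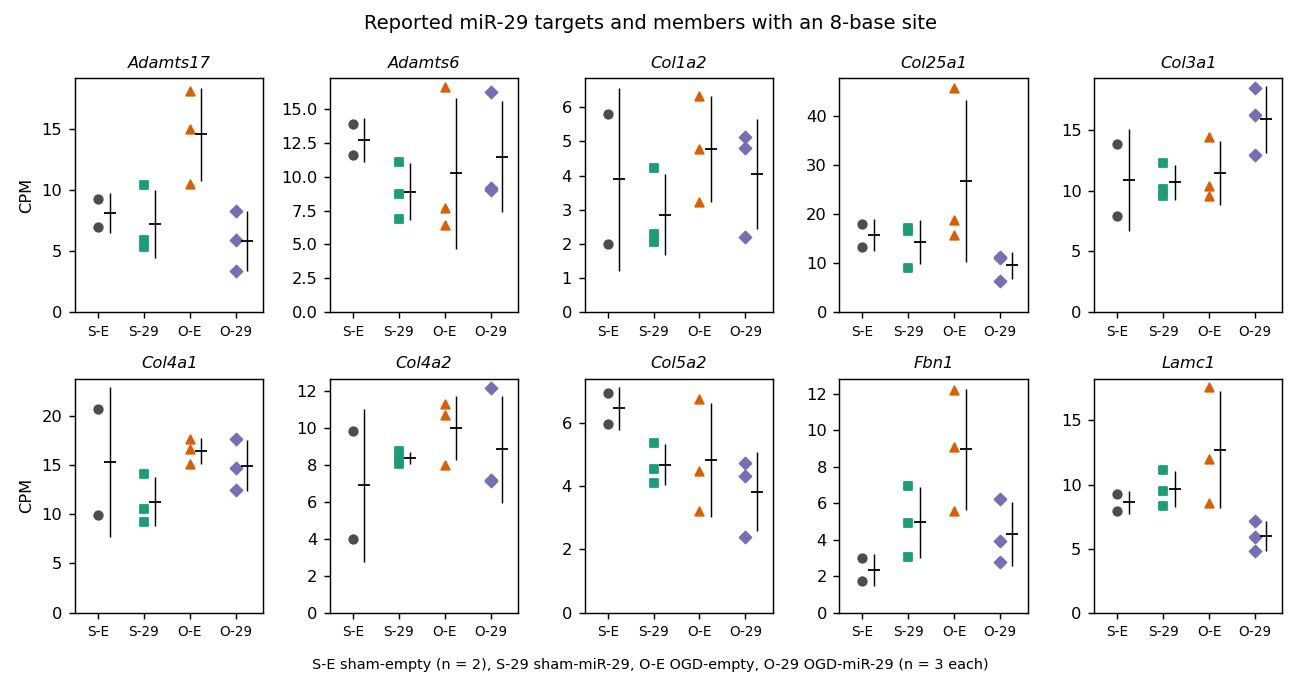
CPM of the 6 reported miR-29 targets in the table and of the other 4 matrix genes with an 8-base site, by library, with the group mean and SD (S-E sham-empty, n = 2; S-29 sham-miR-29, O-E OGD-empty and O-29 OGD-miR-29, n = 3 each). Lamc1, Adamts17 and Col25a1 are lower in every OGD-miR-29 library than in any OGD-empty library, Fbn1 is lower with overlap, and the other 6 genes overlap.

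Matrix genes outside the 46 moved in both directions after OGD. Of 19 measured matrix glycoproteins and proteoglycans, 6 were lower with miR-29 virus and 1 higher, to be read against the 19.9% lower and 17.2% higher over all genes, as are the counts of the next 3 lists. Fn1, which encodes fibronectin, was lower with miR-29 virus by 1.07 ± 0.28 on the log2 scale (adjusted p = 0.00628). It was higher with OGD under empty virus (1.75 ± 0.43, adjusted p = 0.0259), and its interaction was -1.99 ± 0.53 (adjusted p = 0.0273). Vcan, Tnr, Reln, Ncan and Postn were lower too, with log2 differences of -1.79 (Tnr) to -0.73 (Ncan), while Vtn, the 3.23 kb gene of vitronectin, was higher (1.38 ± 0.32, adjusted p = 0.00332). Of 11 genes that process or crosslink collagen, 4 were higher and 1 lower. The 4 were P4ha1, P4ha3 and P4hb, subunits of prolyl 4-hydroxylase, and Ppib, a chaperone of procollagen, all of 50 kb or less, and the one lower was Tll1, a procollagen protease gene of 191 kb (-2.03 ± 0.42). Of 11 matrix proteases and inhibitors, Mmp24 and Plat were higher, and Mmp16, Timp3 and Adam10 were lower. Of 12 genes of integrin signalling, Pxn was higher, and Ptk2, Tln2 and Vcl were lower. With the length trend taken out and the block added, 12% of all genes were higher and 12.1% lower. In that fit 2 glycoproteins and proteoglycans were higher and 3 lower, and 4 collagen processing genes were higher and 1 lower. Of the proteases and inhibitors 2 were higher and 4 lower, and of the integrin signalling genes 2 were higher and 0 lower.

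Markers of neurons were the only full set among the cell type lists. All 8 were in the table, with a summed CPM of 862 to 898 in sham-empty, 840 to 1010 in sham-miR-29, 1040 to 1310 in OGD-empty and 742 to 873 in OGD-miR-29. Astrocyte markers, 6 of 7 in the table without Gfap, summed to 40.6 to 61.2 CPM over all groups. Microglia markers, 3 of 7 in the table, summed to 18.8 to 28 CPM in OGD-empty and 32.1 to 36.1 CPM in OGD-miR-29. Oligodendrocyte lineage markers, 3 of 7, summed to 8.58 to 9.73 and 9.62 to 14.2 CPM in those groups. In each of these 2 lists 1 marker was higher with miR-29 virus after OGD and 0 lower, against 17.2% higher over all genes. None of the 8 endothelial markers and 2 of the 10 pericyte and fibroblast markers (Dcn and Vtn) were among the genes analysed, which are cell types that make much of the collagen in brain. The sum of Dcn and Vtn was 5.97 to 11 CPM in sham-empty and 8.46 to 14.4 CPM with miR-29 virus in sham cultures. After OGD it was 6.49 to 7.5 CPM with empty virus and 11.2 to 20.7 CPM with miR-29 virus. Between the viruses after OGD, Vtn was called higher, as given above, and Dcn was not called (0.39 ± 0.43, adjusted p = 0.497). Of the 8 neuron markers, 4 were lower and 3 higher with miR-29 virus after OGD, against 19.9% lower and 17.2% higher over all genes. The lower ones included Syt1 (513 kb), Rbfox3 (422 kb) and Map2 (267 kb), and the higher ones Nefl (5.23 kb) and Tubb3 (10.6 kb). With the length trend taken out and the block added, 4 were higher and 0 lower. The part of cell makeup in the matrix results was not tested.

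The authors' deposited tables of 2 comparisons, OGD-empty and OGD-miR-29 each against sham-empty, list all 46 genes with none below a false discovery rate of 0.05. The lowest rates in the authors' deposited tables were 0.212 and 0.97. Whether the third sham-empty column entered those comparisons was not given in the sources used here.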

How the data were processed

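Total RNA depleted of ribosomal RNA was sequenced, per the labels' protocols. The authors deposited read counts per gene symbol, not normalized, for 12 columns, and 2 comparison tables with log2 fold changes, average log2 CPM, p-values and a likelihood-ratio score per gene. STAR 2.5.0a, featureCounts 1.4.3-p1, edgeR and build mm10 are named without a role in the submitters' processing notes; annotation, strand and counting region were not stated. The third sham-empty column was left out, as it does not hold read counts. From the deposited counts, genes were tested with edgeR 4.0.16 (R 4.3.3; quasi-likelihood F test, robust, TMM, filterByExpr) in 1 fit of 11 libraries with 4 group means. All 46 members passed the filter, and p-values were adjusted over all 12119 genes tested. Standard errors were obtained as the log2 difference over the square root of the F statistic. P-values measure the spread between these cultures. Scripts were tested on simulated data.

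The design text ties replicate numbers to days of dissection, so the numbers pair the samples, a pairing that the main fit did not use. Same-numbered deviations correlated between -0.0898 and 0.232 over 15 pairs, and different-numbered ones between -0.245 and 0.201 over 30 pairs. Alternatives were a replicate block, offsets removing the per-library trend with gene span (GENCODE M21, GRCm38, loess span 0.5), DESeq2 1.42.0 in place of edgeR, limma-voom (limma 3.58.1), DESeq2 size factors, no filter on low counts, no mitochondrial rows, only the groups compared, the third column kept and each library left out. Members, lists and tests were chosen with earlier results of these data known. Genes named were members called in a contrast, reported targets, the highest member of each family, members with an 8-base site and, where none was called, the extremes of a contrast. Comparisons that share libraries, such as those of OGD-empty with sham-empty and with OGD-miR-29, are not independent. Of the 46, 1 member is counted but not reported singly here.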

Additional observations from a re-analysis of the deposited data

Results flagged for a closer look

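The effect of OGD on Adamts3, a procollagen N-propeptidase gene, differed between the 2 viruses by the test of the difference itself: the interaction was -1.94 ± 0.59 on the log2 scale (edgeR's quasi-likelihood test, adjusted p = 0.0462). The log2 difference between OGD and sham was 1.47 under empty virus and -0.47 under miR-29 virus. Of 20 alternatives, 9 kept this call.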

How the results depend on the processing

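The count of matrix genes called after OGD between the viruses was 14, and 11 to 15 with DESeq2, limma-voom, DESeq2 size factors, the replicate block, no filter, no mitochondrial rows, only the groups compared or the third sham-empty column kept. It was 8 with the length trend removed, with or without the replicate block, 7 of them higher with miR-29 virus, and 9 to 14 on leaving out 1 library. In those 2 length fits these log2 values reversed (without and then with the block): Adamts17 0 and 0.02, Adamts2 0.15 and 0.14, Adamtsl1 0.49 and 0.41, Col25a1 0.18 and 0.17, Itgbl1 0.17 and 0.15, and Itga11, at -0.08 and not called in the fit of group means, 0.53 and 0.53. OGD under empty virus called 1 gene, Itga8, and 0 with DESeq2, limma-voom or the length trend removed without a block, 1 with the third column kept, which was Adamts3 (1.45) in place of Itga8, 3 with the replicate block and 0 to 3 on leaving out 1 library. With only the groups compared, 0 of the 32 members that passed the filter were called, and Itga8 was not among them. The interaction called 1 gene, and 0 with DESeq2 size factors or limma-voom, 4 with the replicate block, 3 when that block went with removal of the length trend, 2 with the third column kept and 0 to 2 on leaving out 1 library. Those 3 were Adamts6 (1.71), Col22a1 (1.53) and Col8a2 (2.02), all in the direction opposite to Adamts3, which was not called in that fit. They are to be read against 924 calls among the 11929 genes tested there. OGD under miR-29 virus and the viruses in sham cultures gave 0 in every alternative, with 39 and 38 members tested where only the groups compared were fitted. The block changed no other call than those given. DESeq2 did not call Adamts2, Adamtsl1 and Fbn1 after OGD. Of 2688 alternative values of single genes, 2482 kept their call and direction, or stayed uncalled within 1 standard error of the main value. The sign of values that stayed uncalled was not compared. Of the rest, 53 lost and 23 gained a call, 118 uncalled values moved by more than 1 standard error and 12 reversed. The cause was not tested. Depth, at 393 to 2749 counts for all 46 genes per library, and 2 sham-empty libraries limit what could be detected.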
